A study of Mus musculus with 16 samples.

Results

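The 10 genes described here are the Notch receptors, ligands and direct targets measured in cortical bone of unloaded and control mice, and they were chosen by symbol: the 4 receptors Notch1, Notch2, Notch3 and Notch4, the ligands Jag1, Jag2 and Dll4, and the target genes Hes1, Hey1 and Heyl. They are 10 of the 36829 features listed for each mouse, and each has 1 entry. RNA was sequenced from marrow-flushed femoral cortical bone of 16 female C57Bl/6 mice that entered the experiment at 11 weeks. In the hindlimb unloading (HLU) group, 8 mice were held by a tail harness for 7 days so that the hind limbs bore no weight, and 8 control mice walked normally. Each mouse gave 1 library. The deposited values are RPKM (reads per kilobase of gene, scaled to the reads of the library), so that levels of different genes can be set side by side.

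Notch receptors sit in the cell membrane and are bound by ligands of the Jagged and Delta-like families on a neighbouring cell. Binding lets ADAM proteases and gamma-secretase cut the receptor, and its freed intracellular domain joins the DNA-binding protein Rbpj and Mastermind-like coactivators in the nucleus, where genes for the Hes and Hey repressors are switched on. In bone the pathway is known to act in osteoblasts, osteocytes, osteoclasts and blood vessels, and Dll4 and Notch4 are known as genes of vessel endothelium, Notch3 and Heyl as genes of the mural cells around vessels.

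The promoters of 4 members are shown because these genes behaved differently between mice: Notch3 and Dll4 varied together, Jag1 varied with other members, and Notch2 did not covary with any member past the threshold. Each is the 250 bases before the annotated start in RefSeq, build GRCm38.p6, written along the gene's strand, and capitals mark CACGNG on either strand, a sequence that Hes and Hey proteins can bind.
Notch3, chr17:32166891-32167140, minus strand: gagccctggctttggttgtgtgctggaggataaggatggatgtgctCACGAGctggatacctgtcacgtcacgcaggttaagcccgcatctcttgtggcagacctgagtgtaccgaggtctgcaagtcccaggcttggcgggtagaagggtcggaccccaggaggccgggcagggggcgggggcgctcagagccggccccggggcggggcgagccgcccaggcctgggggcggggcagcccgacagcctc
Dll4, chr2:119325534-119325783, plus strand: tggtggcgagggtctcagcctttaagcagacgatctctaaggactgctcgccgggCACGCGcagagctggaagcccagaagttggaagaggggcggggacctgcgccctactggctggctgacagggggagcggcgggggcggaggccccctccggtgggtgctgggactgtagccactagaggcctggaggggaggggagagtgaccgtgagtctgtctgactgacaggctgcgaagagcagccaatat
Jag1, chr2:137116521-137116770, minus strand: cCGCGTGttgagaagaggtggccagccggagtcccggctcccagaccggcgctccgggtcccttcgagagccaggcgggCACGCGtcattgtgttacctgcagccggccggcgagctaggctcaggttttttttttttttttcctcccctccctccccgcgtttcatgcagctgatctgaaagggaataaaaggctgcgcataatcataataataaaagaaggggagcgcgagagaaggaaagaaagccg
Notch2, chr3:98013288-98013537, plus strand: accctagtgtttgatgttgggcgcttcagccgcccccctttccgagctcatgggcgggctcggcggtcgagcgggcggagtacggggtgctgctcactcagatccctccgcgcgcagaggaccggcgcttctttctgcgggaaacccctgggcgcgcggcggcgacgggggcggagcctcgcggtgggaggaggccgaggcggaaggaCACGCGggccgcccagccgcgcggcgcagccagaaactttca

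RefSeq windows were matched for 7 of the 10 members (the 4 receptors, Jag1, Jag2 and Dll4). CACGNG, read on both strands, was in 4 of the 7 windows (the 4 printed, and not Notch1, Notch4 or Jag2) and in 23.5% of the 32817 windows of that table. The Rbpj core TGGGAA or its reverse complement TTCCCA was in 0 of the 7 windows and in 21.6% of all windows, and the GC box GGGCGG or CCCGCC was in 5 of the 7 and in 32.5% of all. The members' windows held 57.2% (Jag1) to 87.2% (Jag2) G and C, beside a median of 52.4% over all windows. These counts describe letters in these windows only.

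Libraries were alike in size between groups. The RPKM divisors, in reads, lay between 7067512 and 19708590 for control libraries and between 7838277 and 21363584 for HLU libraries (two-sided exact permutation p = 0.502). Mitochondrial genes took 6.08% to 13.9% of the reads recovered on the listed features in control and 7.88% to 19.1% in HLU mice (exact permutation p = 0.104). The osteocyte markers Dmp1 (50.8 to 181 RPKM) and Sost (29.4 to 136 RPKM) were present in every mouse, and so were the summed granulocyte markers at 12607 to 44809 RPKM, so the samples held bone cells together with marrow cells. In such bulk RNA, fewer cells of a type and less RNA per cell cannot be told apart.

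HLU left none of the 10 members past a test threshold. With limma on log2(RPKM + 0.1), 0 of the 9 members with a mean of at least 0.5 RPKM were past an unadjusted p of 0.05 with a change of at least 1.2-fold, a rule that 5.87% of the 16973 features tested met (1.11% higher and 4.76% lower in HLU). At an adjusted p under 0.1, 0 of the 9 members and 0 of all features (0.00%) were called, while 1049 features had an unadjusted p under 0.05. A fit to recovered reads with voom also called 0 features at the adjusted threshold, and 1136 had an unadjusted p under 0.05. The members' unadjusted p ranged from 0.347 to 0.904, their limma adjusted p from 0.802 to 0.976, and the two-sided exact permutation p over every way of drawing 8 of the 16 mice from 0.352 to 0.906. The mean was higher in HLU for 7 members and lower for Notch1, Notch2 and Hes1, and rescaling turned the sign of Notch2 (by quantiles or to reads outside the mitochondrial genome) and of Hes1 (by these and by median of ratios). The median log2 difference was 0.09 over the 9 members tested and -0.10 over all features, which moved to 0.00 with quantile normalization and to 0.01 when libraries were rescaled to reads outside the mitochondrial genome.

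**Figure D1:**
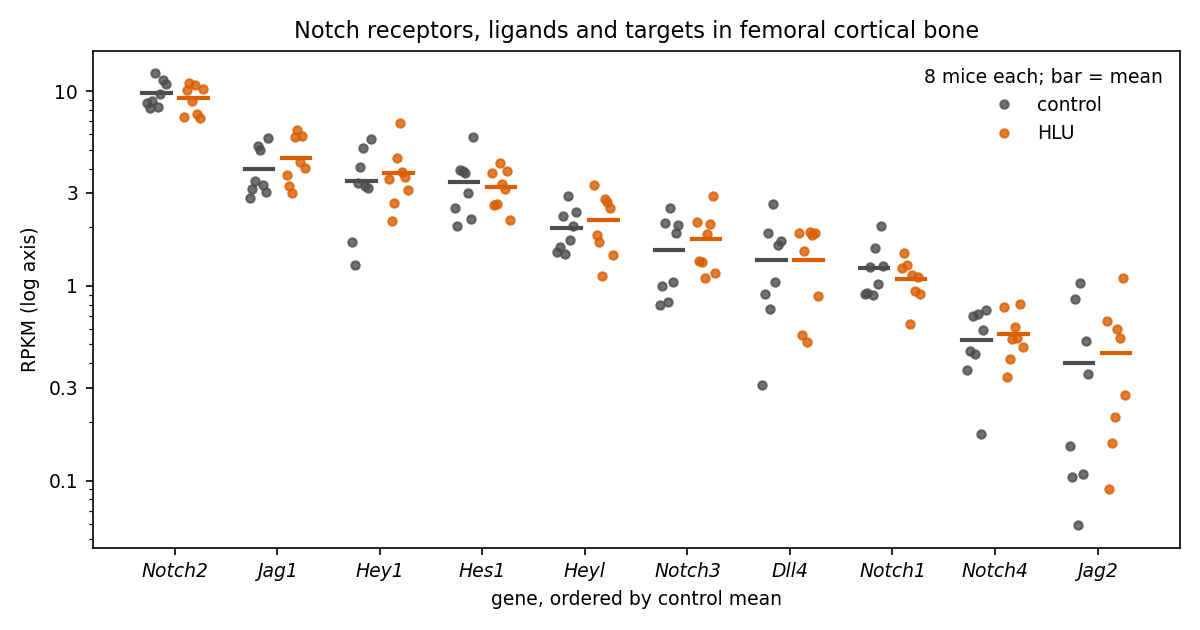
RPKM of the 10 genes in each mouse on a log axis, with control mice in grey, HLU mice in orange and a bar at each group's mean (8 mice per group). The groups overlap for every gene, Notch2 is the most abundant and Jag2 spans the widest range.

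Among the receptors, Notch2 was by far the most abundant. It was measured at 8.15 to 12.3 RPKM in control mice (median 9.29) and at 7.27 to 11.0 RPKM in HLU mice (median 9.51). The groups overlapped, although 3 HLU mice were below all control mice. The mean was 9.79 ± 1.58 and 9.18 ± 1.57 RPKM (SD, n = 8 each), a log2 difference of -0.10 with a 95% interval of -0.36 to 0.17 (limma adjusted p = 0.850). Notch2 made up 75.1% ± 7.25 of the summed receptor RPKM in control and 72.8% ± 7.59 in HLU mice.

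Notch3, the receptor of vascular mural cells, ranged from 0.801 to 2.51 RPKM in control mice (median 1.46) and from 1.1 to 2.88 RPKM in HLU mice (median 1.60). The range was shared but its middle was empty: 8 mice, 4 of each group, were at or below 1.34 RPKM and the other 8 were at or above 1.86 RPKM. The mean was 1.53 ± 0.677 RPKM in control and 1.73 ± 0.616 RPKM in unloaded mice (SD, n = 8 each), and the log2 difference was 0.22 with a 95% interval of -0.34 to 0.79 (limma adjusted p = 0.833). With erythroid and granulocyte marker scores as covariates the difference in Notch3 was 0.60 (limma unadjusted p = 0.0123, adjusted p = 0.108), in a fit in which 23.7% of all features passed the unadjusted rule (9.88% as higher in HLU) and 8.66% the adjusted threshold.

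Notch1, which acts widely in haematopoietic and vascular cells, was at 0.90 to 2.02 RPKM in control mice (median 1.14) and 0.635 to 1.47 RPKM in HLU mice (median 1.12). Its log2 difference was -0.15 with a 95% interval of -0.56 to 0.27 (limma adjusted p = 0.853). Notch4, the endothelial receptor, was the least abundant receptor at 0.174 to 0.753 RPKM in control mice (median 0.529) and 0.339 to 0.807 RPKM in HLU mice (median 0.536). It rested on 34 to 185 reads per mouse, and its log2 difference was 0.13 with a 95% interval of -0.43 to 0.68 (limma adjusted p = 0.905). For both genes most HLU values lay within the control range.

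Among the ligands, Jag1 was the most abundant at 2.83 to 5.74 RPKM in control mice (median 3.38) and 3.01 to 6.35 RPKM in HLU mice (median 4.16). Of the 8 HLU mice, 6 were above the control median and 3 were above every control mouse. The means of 3.97 ± 1.16 and 4.54 ± 1.29 RPKM (SD, n = 8 each) gave a log2 difference of 0.19 with a 95% interval of -0.22 to 0.60, the member with the lowest p (limma p = 0.347, adjusted p = 0.802, exact permutation p = 0.352). Jag1 held 71.0% ± 12.3 of the summed RPKM of the 3 ligands in control and 72.0% ± 10.3 in HLU mice.

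Dll4, the Delta-like ligand of vessel endothelium, spread over 8.43-fold among the 16 mice. It ranged from 0.311 to 2.62 RPKM in control mice (median 1.34) and from 0.515 to 1.89 RPKM in HLU mice (median 1.66), so that every HLU mouse was within the control range. The log2 difference was 0.06 with a 95% interval of -0.74 to 0.86 (limma adjusted p = 0.972), which at the interval's ends corresponds to 0.601-fold and 1.81-fold.

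Jag2 was the rarest member and varied most, by 18.7-fold between mice. It was at 0.0589 to 1.04 RPKM in control mice (median 0.251) and 0.0901 to 1.1 RPKM in HLU mice (median 0.409), from 3 to 78 reads per mouse, and 1 control mouse was at the floor of 3 reads. Its mean over the 16 mice, 0.427 RPKM, was under the filter. The log2 difference of 0.27 had an exact permutation p of 0.591, and without the filter limma gave an adjusted p of 0.892.

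The 3 target genes encode transcriptional repressors of the basic helix-loop-helix class. Hes1 was at 2.03 to 5.83 RPKM in control mice (median 3.39) and 2.18 to 4.30 RPKM in HLU mice (median 3.24), and all HLU values were within the control range. Hey1 was at 1.28 to 5.70 RPKM in control mice (median 3.32) and 2.15 to 6.83 RPKM in HLU mice (median 3.56), with 1 HLU mouse above all control mice. Heyl was at 1.46 to 2.90 RPKM in control mice (median 1.88) and 1.12 to 3.30 RPKM in HLU mice (median 2.17), with HLU mice on both sides of the control range. The log2 differences were -0.03 (95% interval -0.46 to 0.41) for Hes1, 0.19 (-0.42 to 0.80) for Hey1 and 0.09 (-0.37 to 0.54) for Heyl, with limma adjusted p of 0.976, 0.871 and 0.925. Of the summed RPKM of the 3 targets, Hes1 held 38.6% ± 5.15 in control and 35.7% ± 5.38 in HLU mice, and Hey1 held 37.8% ± 6.66 and 40.5% ± 7.04.

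In control mice the order of mean RPKM was Notch2, Jag1, Hey1, Hes1, Heyl, Notch3, Dll4, Notch1, Notch4 and Jag2. The 9 neighbouring pairs were compared within mice by a two-sided exact sign-flip permutation test, with adjustment over the 9 and a threshold of 0.05 on the adjusted p. Notch2 exceeded Jag1 by 1.31 ± 0.372 on the log2 scale, Hes1 exceeded Heyl by 0.71 ± 0.435, Heyl exceeded Notch3 by 0.44 ± 0.306 and Notch1 exceeded Notch4 by 1.12 ± 0.469 (SD, n = 8), each in 8 of 8 mice (exact p = 0.00781, the smallest the test can give, adjusted p = 0.0176). The neighbours Jag1 and Hey1, Hey1 and Hes1, Notch3 and Dll4, Dll4 and Notch1, and Notch4 and Jag2 did not pass, with adjusted p from 0.0562 to 0.969. In HLU mice the order was the same. There the difference between Jag1 and Hey1, 0.28 ± 0.261 on the log2 scale and in the same direction in 7 of 8 mice, passed as well (exact p = 0.0234, adjusted p = 0.0422), and whether that difference itself changed with HLU was not tested. Notch1, Notch2, Notch3 and Dll4 each share exon bases with another annotated gene in GENCODE M21, and strand use in counting is not stated, so reads of such pairs may be mixed.

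**Figure D2:**
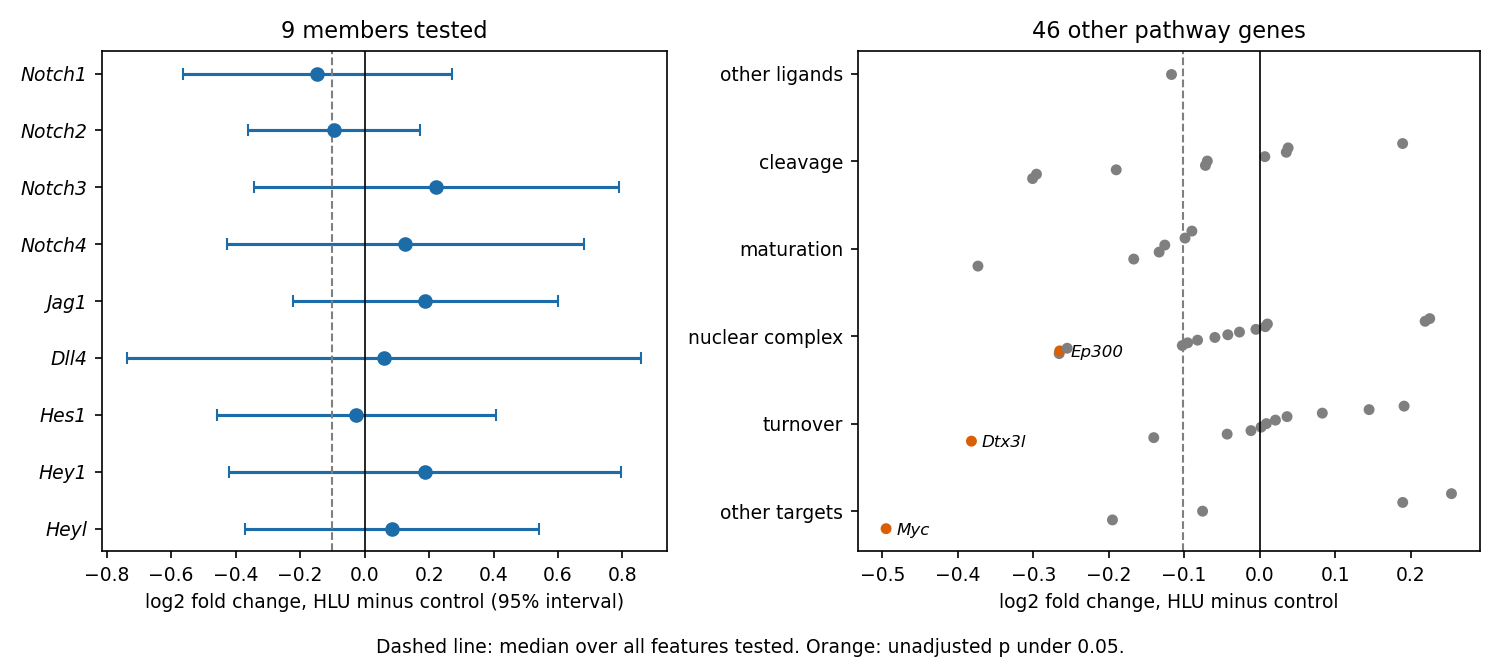
Log2 fold change, HLU minus control, of the 9 members tested with 95% intervals (left) and of the 46 other pathway genes tested, by list (right). Every member's interval spans 0, and the 3 genes in orange, Myc, Dtx3l and Ep300, are those with an unadjusted p under 0.05.

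Of 59 other genes of the pathway, 58 are listed and 46 were tested. None was called higher in HLU, 3 were called lower by the unadjusted rule (Myc, Ep300 and Dtx3l), and 0 passed the adjusted threshold. The share called lower, 6.52% of the 46, lay near the 4.76% of all features, and the share called higher over all features was 1.11%. The median log2 difference over the 46 was -0.06, beside -0.10 over all features. Myc, a growth-promoting transcription factor and common Notch target, was at 3.46 to 5.99 RPKM in control and 2.13 to 4.62 RPKM in HLU mice, and 7 of 8 HLU mice were below the control median. Its means of 4.46 ± 0.730 and 3.20 ± 0.871 RPKM (SD, n = 8 each) gave a log2 difference of -0.49 (limma unadjusted p = 0.00596, adjusted p = 0.744, exact permutation p = 0.0073). The difference ranged from -0.58 to -0.42 when each mouse in turn was left out and kept an unadjusted p under 0.05 in all 16 of these fits. Under the 16 other alternatives it ranged from -0.57 to -0.31, lowest in size with erythroid and granulocyte scores as covariates, and kept an unadjusted p under 0.05 in 16 of 16.

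Ep300, a histone acetyltransferase recruited as coactivator, averaged 9.74 ± 1.34 RPKM in control and 8.14 ± 1.57 RPKM in unloaded mice (SD, n = 8 each), a log2 difference of -0.26 (limma unadjusted p = 0.0422, adjusted p = 0.744, exact permutation p = 0.0343). Dtx3l, a Deltex-family ubiquitin ligase, was at 7.77 ± 2.45 and 5.84 ± 1.33 RPKM (SD, n = 8 each), a log2 difference of -0.38 (limma unadjusted p = 0.0487, adjusted p = 0.744, exact permutation p = 0.0575). Leaving out single mice kept an unadjusted p under 0.05 in 6 of 16 fits for Ep300 and 6 of 16 for Dtx3l. The 16 other alternatives kept it in 10 for Ep300 (differences from -0.29 to -0.15, the smaller with quantile normalization) and in 8 for Dtx3l (-0.49 to -0.26).

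No other gene of these lists had an unadjusted p under 0.05. The most abundant receptor-cutting genes, Adam10 (an ADAM protease that cuts the ligand-bound receptor) and Ncstn (nicastrin, a gamma-secretase subunit), had log2 differences of -0.30 and -0.07. Lfng, which adds sugars to the receptor, was at 5.68 ± 2.87 RPKM in control and 4.07 ± 1.06 RPKM in unloaded mice (SD, n = 8 each), with all 8 HLU mice below the control median (log2 difference -0.37, limma adjusted p = 0.764). Poglut1, an O-glucosyltransferase acting on Notch, differed by -0.13. In the nuclear complex Snw1, a cofactor, and Hdac2, a histone deacetylase of corepressors, differed by -0.04 and -0.08. Among the ubiquitin ligases Nedd4 and Dtx3 differed by 0.02 and 0.00. The cyclin gene Ccnd1 differed by -0.08. Of the other ligands, Dll1 was at 0.742 ± 0.218 RPKM in control and 0.675 ± 0.240 RPKM in unloaded mice (SD, n = 8 each), a log2 difference of -0.12, and Dner, at a mean of 0.320 RPKM over the 16 mice, was under the filter.

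Within groups, differences between mice were shared by many members. Log2 values centred on each group's mean were correlated over the 16 mice for all 45 pairs of members, with 100000 permutations within groups and adjustment over the 45. By Pearson's r 12 pairs had an adjusted p under 0.05, all positive, and by Spearman's rho 15 pairs, which include those 12. Of the 12 pairs, 9 joined Notch3, Notch4, Jag2, Dll4 and Heyl among themselves and 3 joined Jag1, Hes1 and Hey1. These groupings were read from the values, so no test is given for them.

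Notch3 and Jag2 had r = 0.91 and rho = 0.79 (permutation p = 6e-05 and 0.00111, adjusted p = 0.000675 and 0.00703), and r was 0.87 without the 2 mice farthest from the median of Notch3. Within control mice r was 0.93 and within HLU mice 0.88 (exact permutation p = 0.00437 and 0.00702, n = 8 each). Notch3 and Dll4, receptor and ligand, had r = 0.87 and rho = 0.86 (permutation p = 2e-05 and 0.0001, adjusted p = 0.00045 and 0.0015), with r = 0.85 without the 2 farthest mice. Within control mice r was 0.92 and within HLU mice 0.79 (exact permutation p = 0.000273 and 0.021, n = 8 each). Both pairs thus passed within each group of mice.

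Heyl, a target, followed the same genes. With Dll4 it had r = 0.83 and rho = 0.87 (permutation p = 1e-05, the smallest 100000 permutations can give, and 3e-05, adjusted p = 0.00045 and 0.0009), and with Notch3 r = 0.86 and rho = 0.81 (permutation p = 6e-05 and 4e-05, adjusted p = 0.000675 and 0.0009). Without the 2 farthest mice r was 0.83 and 0.85. The remaining pairs of these 5 genes had r from 0.58 to 0.79, of which Notch4 with Dll4 (r = 0.60, permutation p = 0.0214, adjusted p = 0.0643, rho = 0.74, permutation p = 0.0026, adjusted p = 0.013) passed by rho alone. Notch4 with Heyl (r = 0.58, permutation p = 0.0112, adjusted p = 0.042; rho = 0.66, permutation p = 0.00704, adjusted p = 0.0226) lost its call by r in 12 of the 16 fits that left out 1 mouse, and the other 11 called pairs lost theirs in 0.

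The 16 mice fell on either side of the gap in Notch3 described above, which was noted after the values were seen. Among the 8 mice below the gap the 10 correlations between Notch3, Notch4, Jag2, Dll4 and Heyl ranged from -0.62 to 0.77 with a median of -0.18, and among the 8 above it from 0.18 to 0.75 with a median of 0.46. Each set holds 4 control and 4 HLU mice. The libraries also differed between the sets in the share of reads recovered on the listed features. It was 85.6% (HLU mouse 4) to 93.2% (control mouse 1) below the gap and 76.3% (HLU mouse 7) to 90.5% (control mouse 7) above it. The part of this share in the correlations was not tested. A split along a gene's own values narrows its range and so lowers r by construction, and the part of this in the values was not tested.

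Jag1, Hes1 and Hey1 formed the other set of called pairs. Jag1 and Hey1 had r = 0.80 and rho = 0.83 (permutation p = 0.00012 and 0.00032, adjusted p = 0.00108 and 0.00288), and r was 0.71 without the 2 farthest mice. Jag1 and Hes1 had r = 0.75 and rho = 0.71 (permutation p = 0.0015 and 0.00371, adjusted p = 0.00675 and 0.0152), with r = 0.72 without the 2 farthest mice. Hes1 and Hey1 had r = 0.74 and rho = 0.69 (permutation p = 0.00232 and 0.00563, adjusted p = 0.00949 and 0.0197), with r = 0.60 without the 2 farthest mice. Jag1 with Hey1 had r = 0.80 within control and 0.85 within HLU mice (exact permutation p = 0.0168 and 0.00367). For Jag1 with Hes1 the values were 0.85 and 0.64 (exact permutation p = 0.00878 and 0.0929). For Hes1 with Hey1 they were 0.83 and 0.55 (exact permutation p = 0.0093 and 0.152). The last 2 pairs thus did not pass within HLU mice, and whether r differed between groups was not tested. Below the gap in Notch3 the correlations among Jag1, Hes1 and Hey1 were 0.80 to 0.84, and above it 0.44 to 0.83 with a median of 0.61. Among the 15 pairs between the set of 5 and the set of 3, r ranged from 0.22 to 0.55 and 0 passed.

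Notch2 passed with 0 of the other 9 members (r from -0.45 with Jag2 to 0.23 with Hey1). Notch1 passed by Pearson's r with none, and by rho with Notch3 (r = 0.61, permutation p = 0.0171, adjusted p = 0.0582; rho = 0.70, permutation p = 0.00568, adjusted p = 0.0197) and Heyl (r = 0.58, permutation p = 0.0181, adjusted p = 0.0582; rho = 0.62, permutation p = 0.0123, adjusted p = 0.037). Correlations of this size were common across the transcriptome. An r of at least 0.7 with Notch3 was reached by 14.1% of the features tested, with Notch1 by 13.8%, with Dll4 by 13.1%, with Heyl by 9.63% and with Jag2 by 9.02%. It was reached by fewer with Jag1 (4.93%), Notch2 (4.37%), Hey1 (4.09%), Hes1 (2.86%) and Notch4 (2.70%).

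**Figure D3:**
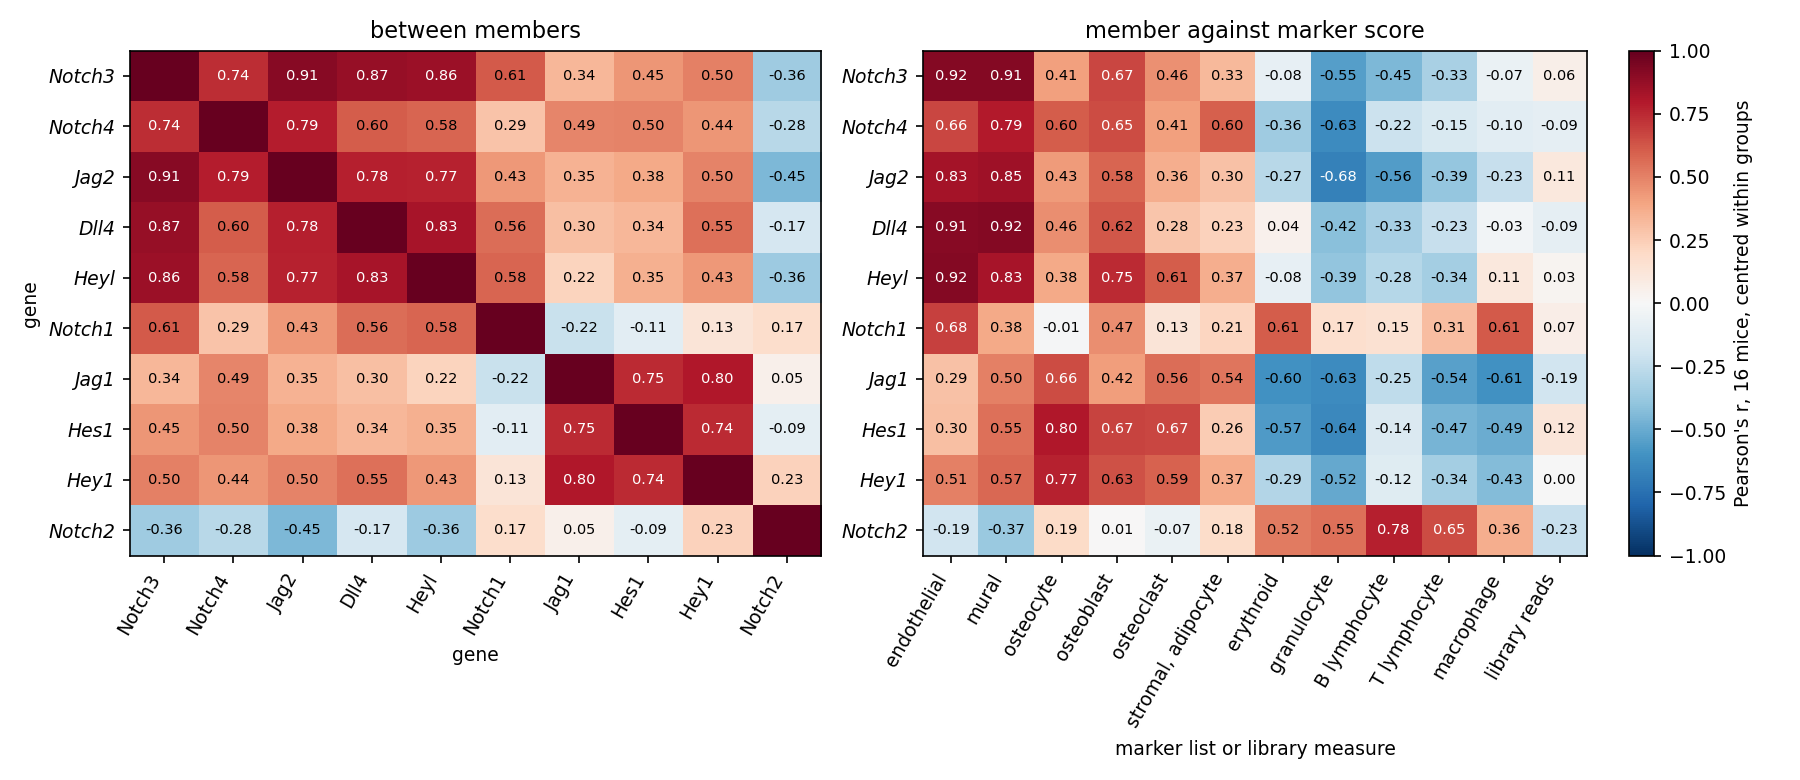
Pearson's r over 16 mice, centred within groups, between the 10 genes (left) and of each gene with cell type marker scores and log2 library reads (right). Notch3, Notch4, Jag2, Dll4 and Heyl form one positive patch and Jag1, Hes1 and Hey1 another, Notch2 is apart, and with library reads r is at most 0.23 in size over the 16 mice, though within HLU mice it was -0.64 for Notch2 and -0.61 for Hey1.

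The members' highest correlations were with the markers of different cell types, although most also followed others. Marker scores are the mean centred log2 value of a list of marker genes that holds no member, and the correlations, over 16 mice that share library and tissue composition, are descriptions. With the endothelial score (12 genes, among them Pecam1 and Cdh5) r was 0.92 for Notch3, 0.92 for Heyl, 0.91 for Dll4, 0.83 for Jag2, 0.68 for Notch1 and 0.66 for Notch4. With the mural score (8 genes tested, among them Acta2 and Myh11) r was 0.92 for Dll4, 0.91 for Notch3, 0.85 for Jag2, 0.83 for Heyl and 0.79 for Notch4. The endothelial and mural scores themselves had r = 0.88, so these lists did not separate the cell types of the vessel wall. These genes also followed the osteoblast score, at 0.75 for Heyl, 0.67 for Notch3, 0.65 for Notch4, 0.62 for Dll4 and 0.58 for Jag2, and Notch4 had r = 0.60 with the osteocyte score.

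Hes1 (r = 0.80), Hey1 (0.77) and Jag1 (0.66) had their highest positive correlation with the osteocyte score (8 genes). Hes1 had r = 0.67 with the osteoblast score and 0.67 with the osteoclast score, and Hey1 had 0.63 and 0.59. The osteocyte and osteoblast scores themselves had r = 0.76, so these lists did not fully separate the cell types. Within control mice r was higher with the osteoblast than the osteocyte score for Hey1 (0.87 and 0.75), Hes1 (0.88 and 0.87) and Jag1 (0.75 and 0.72). Within HLU mice it was lower with the osteoblast score (0.26 and 0.82, 0.35 and 0.63, 0.06 and 0.60), a difference not tested. With the granulocyte score r was negative, at -0.64 for Hes1, -0.52 for Hey1 and -0.63 for Jag1. Jag1 also had r = -0.60 with the erythroid and -0.61 with the macrophage score. Hes1 had r = -0.91 with the erythroid score within HLU mice and -0.32 within control mice. Correlations with the granulocyte score were also negative for Jag2 (-0.68), Notch4 (-0.63), Notch3 (-0.55), Dll4 (-0.42) and Heyl (-0.39), and positive for Notch1 (0.17) and Notch2. Notch2 had its highest correlation with the B lymphocyte score (r = 0.78), followed by the T lymphocyte score (0.65) and the granulocyte score (0.55). The first was alike in control (0.79) and HLU mice (0.77), whereas that with granulocyte markers was 0.05 in control and 0.80 in HLU mice, a difference not tested. Notch1 was mixed, at 0.68 with endothelial (0.88 in control, 0.46 in HLU mice), 0.61 with erythroid and 0.61 with macrophage markers (0.33 in control, 0.86 in HLU mice, and 0.36 without the 2 farthest mice).

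With the endothelial score as a covariate, an analysis added after the data were seen, 1 of the 45 pairs passed, Jag1 with Hey1 (r = 0.80, adjusted permutation p = 0.0211). The median r among Notch3, Notch4, Jag2, Dll4 and Heyl was then 0.08, from -0.10 to 0.68, and that among Jag1, Hes1 and Hey1 was 0.72. Adjusting for a score lowers r between genes that follow it by construction, and these 5 had r of 0.66 to 0.92 with the endothelial score. Such fits therefore do not show which cells hold the transcripts. With the osteocyte score as a covariate, also added later, 7 pairs passed, all 7 among the first 5 genes, and the median r among Jag1, Hes1 and Hey1 was 0.49. With erythroid and granulocyte scores 7 pairs passed, and 20 passed when libraries were rescaled to reads outside the mitochondrial genome.

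**Figure D4:**
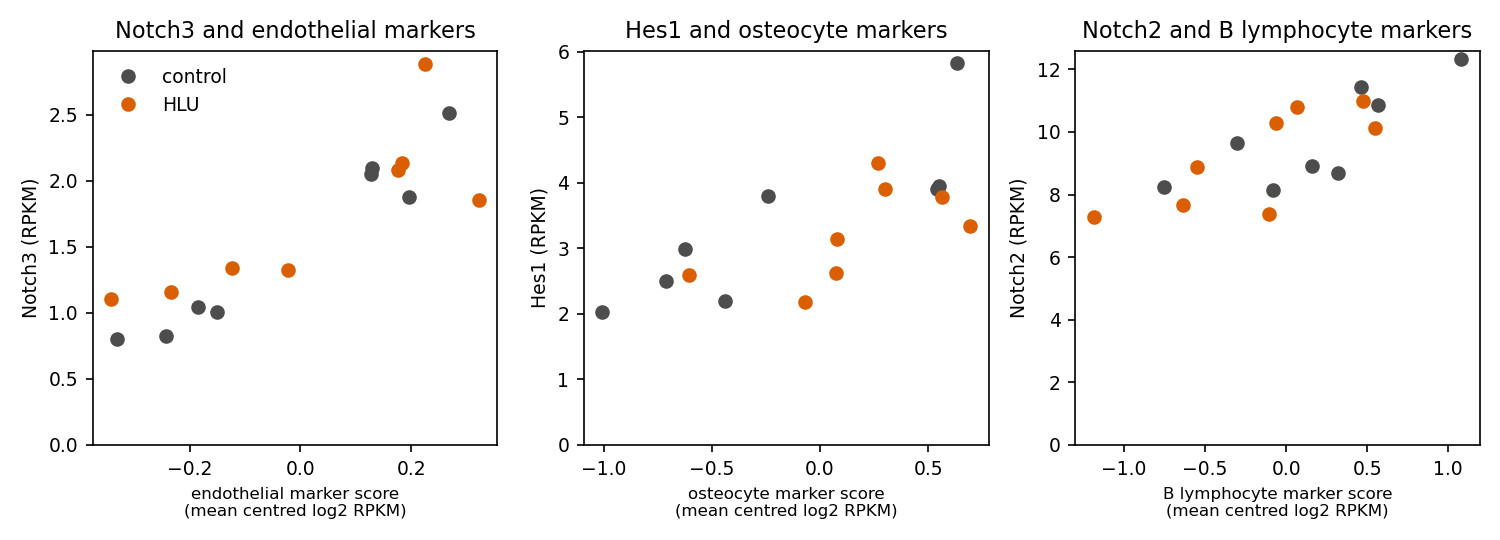
Notch3 against the endothelial score, Hes1 against the osteocyte score and Notch2 against the B lymphocyte score in each mouse (RPKM from 0 on the vertical axis, score as mean centred log2 RPKM on the horizontal axis, control in grey and HLU in orange). In the 16 mice r was 0.92, 0.80 and 0.78 after centring within groups, and for Notch3 the 2 sets of 8 mice are apart on both axes.

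The marker lists also stood beside the comparison of HLU with control. Their genes are called by the unadjusted rule, which 1.11% of all features met as higher and 4.76% as lower in HLU. Each marker gene named as called had a limma adjusted p of 0.744, and the score differences were not tested. The endothelial score differed by 0.05 (summed 75.8 to 107 RPKM in control and 80.7 to 117 in HLU mice, 0 of 12 genes called) and the mural score by 0.18 (139 to 292 and 133 to 317 RPKM, 0 of 8 called). The osteocyte score was higher in HLU by 0.33 (189 to 618 and 276 to 631 RPKM, 1 of 8 called, Mepe). The erythroid score was lower in HLU by 0.56 (1130 to 2451 and 532 to 1857 RPKM, 2 of 6 called, Klf1 and Rhag), the T lymphocyte score by 0.43 (16.05 to 48.0 and 10.7 to 36.5 RPKM, 1 of 7 called, Cd3d) and the B lymphocyte score by 0.37 (35.9 to 140 and 29.7 to 94.4 RPKM, 0 of 7 called). The granulocyte score differed by -0.11 (0 of 6 called), the macrophage score by -0.16 (0 of 7 called) and the osteoblast score by -0.06 (0 of 8 called). The osteoclast score differed by -0.01 (0 of 7 called) and the stromal and adipocyte score by 0.09 (1 of 7 called, Fabp4). Of the fixed markers 12 of 12 endothelial, 9 of 10 mural, 8 of 8 osteocyte, 6 of 8 erythroid, 7 of 8 T lymphocyte and 7 of 8 B lymphocyte genes are listed. So are 6 of 8 granulocyte, 7 of 8 macrophage, 8 of 8 osteoblast, 8 of 8 osteoclast and 7 of 8 stromal and adipocyte genes, and none of those listed was at 0 in any mouse. The part of these differences in the members' values between groups was not tested beyond the fits with scores as covariates.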

How the data were processed

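RNA from the femoral cortical bone of 8 control and 8 HLU mice was sequenced as TruSeq libraries on a HiSeq. The authors deposited 1 file of RPKM values per mouse. The submitters' processing notes name TopHat2, DESeq2 and the build mm9, and the annotation, the counting tool and its use of strand are not given in the sources used here. Groups and mouse numbers came from the sample titles. The 10 members and all gene and marker lists were chosen with earlier results of these data known.

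The deposited RPKM could be turned back into whole reads (within 0.01 read) for 16973 of 16973 features whose mean reached 0.5 RPKM, and for 300 of 300 features simulated from known reads. HLU was compared with control by limma 3.58.1 in R 4.3.3 on log2(RPKM + 0.1), with a variance trend and Benjamini-Hochberg adjustment over these 16973 features. The authors used DESeq2, a count test, and here the recovered reads were fitted with voom as an alternative. Fold changes on this scale understate those of low genes. On simulated data, 113 of 200 genes changed 2-fold were recovered among 16973 features, 0 with the wrong sign, with 16 false calls. Those values were drawn independently for each gene, unlike the correlated features measured here. The members' log2 differences, from -0.15 to 0.27, were smaller than a 2-fold change, so this recovery does not apply to them. Single values were tested by exact permutation in Python (3.11.15, with pandas 2.3.3, scipy 1.17.1 and numpy 2.4.6), and figures were drawn with matplotlib 3.10.9. With covariates, permuted values were adjusted for them again.

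The genes named are the 10 members, pathway genes with an unadjusted p under 0.05, the 2 most abundant of each pathway list, and for each member the 3 features of at least 2 RPKM most correlated with it. Of the last, 1 feature is not reported here. Precision is limited by 3 to 2285 reads per member and mouse, and 3 reads corresponded to 0.140 to 0.424 RPKM for a gene of 1 kb. Such limits cover counting error only. Alternatives were other pseudocounts, filters, rescalings, variance models, covariates, recovered reads (voom), the mouse number as a block, and leaving out mice. Sequences are RefSeq, build GRCm38.p6. The 8 skeletal muscle markers were not analysed here.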

Additional observations from a re-analysis of the deposited data

How the results depend on the processing

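No member tested passed the adjusted threshold under any of the 32 alternatives. These fits held 9 members, except 5 at a minimum mean of 2 RPKM and 10, with Jag2 among them, without the filter. The unadjusted rule was passed by 1 member under 1 alternative, Notch3 at 0.60 with erythroid and granulocyte scores as covariates, where Notch1 turned to 0.25. The sign of other small, uncalled differences turned. Notch2 was 0.0254 with quantile normalization and 0.0194 rescaled to non-mitochondrial reads. Hes1 was 0.0645 with quantile normalization, 0.0658 with median-of-ratios rescaling and 0.0879 rescaled to non-mitochondrial reads. Notch4 was -0.0193 with endothelial and mural scores and -0.0426 with the osteocyte score. Dll4 was -0.0122 with array weights, -0.0833 with the endothelial score, -0.16 with endothelial and mural scores, -0.16 with the osteocyte score and -0.0707 without the 2 smallest libraries. Hey1 was -0.12 without these libraries and -0.10 with the osteocyte score, and Heyl was -0.0139 and -0.0126. The cause was not tested.

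Leaving out each mouse in turn gave ranges of -0.21 to -0.04 for Notch1, -0.13 to -0.05 for Notch2, 0.11 to 0.34 for Notch3, -0.0334 to 0.21 for Notch4, 0.11 to 0.27 for Jag1, 0.08 to 0.49 for Jag2, -0.17 to 0.22 for Dll4, -0.12 to 0.0943 for Hes1, 0.01 to 0.31 for Hey1 and -0.00777 to 0.20 for Heyl, 0 members past either threshold, and 11 to 16 covarying pairs. It gave 117 to 363 features higher, 471 to 1385 lower and 0 to 1 past the adjusted threshold. The highest counts came without HLU mouse 2 (363, 1385 and 1) and the lowest without HLU mouse 7 (117 and 471), and counts also moved by over 1.5 times without HLU mouse 3 (310 higher), HLU mouse 1 (488 lower), control mouse 6 (505 lower) and control mouse 7 (512 lower).

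Features called higher and lower numbered 188 and 808, and became 381 and 395 with median-of-ratios rescaling, 460 and 364 with quantile normalization, 393 and 380 rescaled to non-mitochondrial reads, and 1677 and 2352 with erythroid and granulocyte scores, where 1470 passed the adjusted threshold. Those called higher became 391 without the filter, 106 at a minimum of 2 RPKM, 108 without the 2 smallest libraries and 103 with the osteocyte score. The adjusted threshold was passed by 1 feature without the filter and 1 with no variance trend. Of the 45 pairs 12 passed, against 7 with erythroid and granulocyte scores, 20 rescaled to non-mitochondrial reads, 7 with the osteocyte score and 1 with the endothelial score, where Notch4 with Heyl (r = -0.10) and Dll4 with Heyl (r = -0.10) turned. Rescaling to non-mitochondrial reads, leaving out the 2 smallest libraries, the osteocyte score and, for pairs, the endothelial score were added after the data were seen.

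Mouse numbers did not pair the samples: the correlation of same-numbered mice ranged from -0.17 to 0.51 and was over 0.1 for 3 of 8 numbers, and 1 of 8 control mice correlated best with its own number. With the number as a replicate block 199 features were higher, 840 lower and 0 past the adjusted threshold, 0 members passed, and 8 of 45 pairs passed, 7 of them among the 12.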

Other observations

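Features most like each member between mice, among 11392 features with a symbol used once and a mean of at least 2 RPKM, gave further values. For Notch3 these were Thra (thyroid hormone receptor alpha), Gpc1 (the proteoglycan glypican 1) and Trim3, with r of 0.98, 0.98 and 0.97 over 16 mice, centred within groups. For Dll4 they were Prmt7, Pdlim7 and Col5a3 (r = 0.95 each), for Heyl Bmp1, St6galnac6 and Cacnb3 (0.94, 0.94 and 0.94), for Jag2 Phlda3 and Ece1 (0.93 and 0.92) and for Notch4 H2afy2, Loxl1 and Olfml3 (0.91, 0.91 and 0.90). For Jag1 they were Pam, Enpp1 (an enzyme that makes the mineralization inhibitor pyrophosphate) and C1s (0.96, 0.96 and 0.94), for Hey1 Mageh1, Tm4sf1 and Gm15917 (0.94, 0.93 and 0.91), and for Hes1 Mamdc2, Fkbp14 and Pdpn (0.91, 0.90 and 0.89). Pdpn, podoplanin, is also 1 of the 8 osteocyte markers of the score used above. For Notch2 they were Trim26, Dazap2 and Rhoh, a GTPase of haematopoietic cells (0.95, 0.91 and 0.90), and for Notch1 Pitpnm1, Acd and Mll2 (each 0.95). These are the highest of many correlations and are given as descriptions.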
